A study of Homo sapiens with 6 samples.

Results

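TXNIP and ARRDC4 encode 2 of the alpha-arrestins and were described here in A375 cells with and without overexpression of CYGB, the gene of the haem protein cytoglobin. They are the rows of the deposited count table that carry these gene names, 2 of its 2778 features, and were selected on the difference between their counts in the 2 groups compared below. A375 is an established human melanoma line, and 3 libraries of untreated wildtype A375 cells (genotype label WT) were set against 3 libraries of untreated A375 cells with the genotype label CYGB-overexpression (CYGB-OE below; the column headers write hCYGB). All 6 come from cells grown in DMEM with serum. The labels name neither the vector and its promoter, nor whether the overexpressing cells are 1 clone, nor an empty-vector control.

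Alpha-arrestins are adaptor proteins that recruit ubiquitin ligases of the NEDD4 family to membrane proteins, which can then be internalized. TXNIP, the thioredoxin-interacting protein, also binds and inhibits reduced thioredoxin, and both TXNIP and ARRDC4 restrain glucose uptake. Their transcription is known to rise with glucose through MondoA (gene MLXIP) or its relative ChREBP (gene MLXIPL), which bind DNA together with MLX at carbohydrate response elements. Such an element is a pair of E-boxes, each spelled CACGTG in its ideal form, separated by 5 bases.

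The 250 bases before the RefSeq start of each gene (GRCh38.p14) are printed with their best matches to this paired arrangement, none of which is complete. Both members were matched in the RefSeq promoter table, and for TXNIP, which has 2 starts there, the outer one was used. Sequences run 5′ to 3′ on the strand of the gene. Capitals mark the E-box positions of the best matches to CACGTG, 5 bases of any kind and CACGTG again: the best 2 in TXNIP and the best in ARRDC4. The TXNIP window is chr1:145996580-145996829 on the minus strand and the ARRDC4 window is chr15:97960453-97960702 on the plus strand.
TXNIP: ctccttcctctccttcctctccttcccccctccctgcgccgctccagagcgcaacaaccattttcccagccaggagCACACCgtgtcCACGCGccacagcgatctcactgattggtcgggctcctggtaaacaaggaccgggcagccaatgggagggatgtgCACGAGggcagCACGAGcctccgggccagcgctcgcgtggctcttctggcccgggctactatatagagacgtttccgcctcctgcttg
ARRDC4: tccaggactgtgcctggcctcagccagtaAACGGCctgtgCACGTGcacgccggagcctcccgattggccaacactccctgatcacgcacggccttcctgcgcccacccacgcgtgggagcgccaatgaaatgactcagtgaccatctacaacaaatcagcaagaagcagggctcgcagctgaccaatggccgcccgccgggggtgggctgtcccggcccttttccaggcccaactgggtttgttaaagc

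The best TXNIP match, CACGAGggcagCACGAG, starts 88 bases before the start and has 10 of the 12 fixed letters. A second one, CACACCgtgtcCACGCG, starts at 174 bases and has 8 of 12. The best ARRDC4 match, AACGGCctgtgCACGTG, starts at 221 bases and has 9 of 12, with an ideal E-box in its second place and not in its first. All mismatches of the ARRDC4 match lie in its first place, so a pair of E-boxes cannot be read there. Of the 35116 RefSeq promoter windows of the same length, 0.849% held a match with at most 2 mismatches, as TXNIP does. At most 3, as in ARRDC4, were found in 7.76% of windows, and at most 4, as in the second TXNIP match, in 40.9%. The paired motif reads the same on both strands. These are matches of letters and not measured binding sites.

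The ideal E-box CACGTG alone was present once in the ARRDC4 window and not in that of TXNIP (6.34% of all windows hold it on either strand). The looser form CACGNG, which includes CACGTG, occurred at 4 positions in TXNIP and 3 in ARRDC4 (26.7% of windows), and 2 of those in ARRDC4 overlap each other. CCAAT, the letters of the NF-Y box, occurred at 2 positions in TXNIP and 3 in ARRDC4 (32% of windows). GTAAACA, the forkhead (FOXO) motif, occurred once in TXNIP, at 124 bases before the start, and not in ARRDC4 (2.98% of windows). Of the windows of the 2 TXNIP starts, only 1 holds this motif, the outer one used here. TATATA occurred once in TXNIP, at 29 bases, and not in ARRDC4 (3.73% of windows). All were searched on both strands, and each share counts the windows that hold any match, whatever the number of positions.

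**Figure D1:**
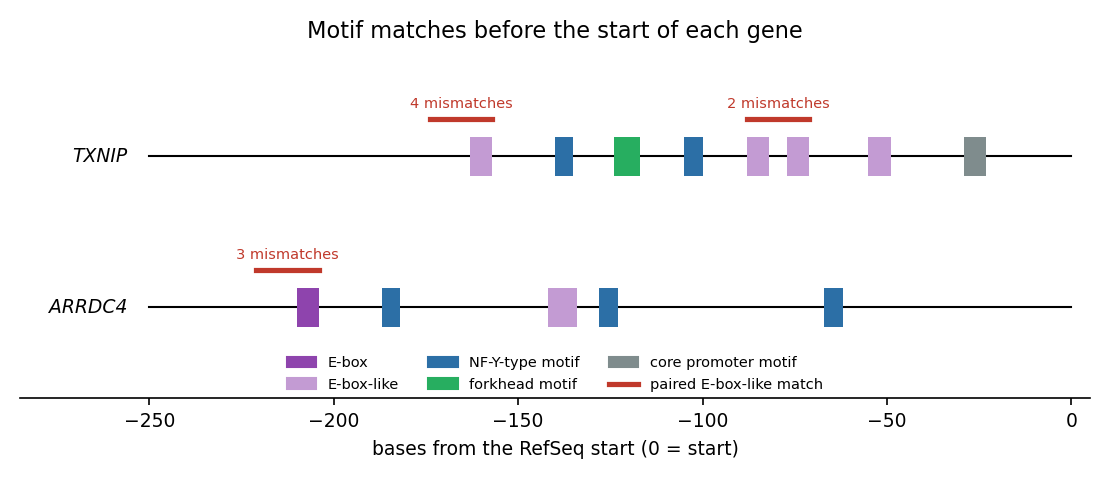
Motif matches in the 250 bases before the RefSeq start of TXNIP (upper line) and ARRDC4 (lower line); the x axis is the distance from the start in bases. Boxes are matches of the E-box, E-box-like, NF-Y-type, forkhead and core promoter (TATA) motifs on either strand, and red bars are the paired E-box-like matches with their mismatches out of 12 letters. The TXNIP match with 2 mismatches lies nearer to the start (88 bases) than the ARRDC4 match with 3 (221 bases).

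TXNIP (ENSG00000265972) lies on GRCh38 chromosome 1, 145992435 to 145996600, minus strand, with 3625 exonic bases in GENCODE 29. ARRDC4 (ENSG00000140450) lies on chromosome 15, 97960698 to 97973838, plus strand, with 4072 exonic bases. No other annotated gene overlaps either of them. Within 500 kb of TXNIP the annotation has 38 other genes, 20 of them protein-coding, and 1 of the 38 is in the table: the pseudogene GNRHR2, 67094 bases away, at a log2 fold change of -1.05, which turned to 0.14 with factors from the trimmed mean of M-values (TMM) over the table. Of 19 genes within 500 kb of ARRDC4, 1 is in the table, the long non-coding RNA LINC02251, 29243 bases away, at -1.76, or -2.68 without CYGB-OE replicate 1; with TMM it was at -0.57 (edgeR adjusted p = 0.394).

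The table bears on how these values can be read. With the scaling used here, no feature in it differs by less than about 2-fold from WT to CYGB-OE, so its column totals, 1533260 to 2801576 counts, are not library depths, and genes outside it were not analysed here. Of 2468 features tested, 70.9% were called lower and 28.9% higher in CYGB-OE (edgeR quasi-likelihood test, adjusted p under 0.05). CYGB itself, which checks the labels, had 33 to 47 counts in WT and 20740 to 26267 in CYGB-OE. CYGB-OE replicate 1 stood apart from replicates 2 and 3: the median absolute log2 difference over tested features from them was 0.455 and 0.461. It was 0.211 for the pair of replicates 2 and 3, and 0.175 to 0.185 for pairs of WT libraries. Of 9 melanocyte lineage markers, EDNRB, TYRP1 and DCT are in the table. EDNRB was at 1804 ± 93.0 normalized counts in WT and 637 ± 57.8 in CYGB-OE (SD, n = 3), TYRP1 had 17 to 32 counts and 1 to 8, and DCT had 2 to 15 and 0. MITF, SOX10 and the remaining markers are outside it, so the lineage could not be checked fully. Of the markers of leukocytes, fibroblasts, epithelium and endothelium, the table holds LYZ, at 43.6 to 55.3 normalized counts in WT and 223 to 341 in CYGB-OE, and COL1A2, at 0 to 3.16 and 36.3 to 173. Their part in the results below was not tested.

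Both alpha-arrestin transcripts were far lower in CYGB-OE, TXNIP about 35-fold and ARRDC4 about 7-fold. These genes were chosen because of this difference, so their values are given as a description, with no test. The deposited counts of TXNIP were 26118, 31815 and 27428 in the 3 WT libraries, in the order of their replicate numbers, and 556, 787 and 962 in those of CYGB-OE. Divided by the library factors, these were normalized counts of 28723, 25145 and 29151 in WT and 593, 879 and 874 in CYGB-OE. The 2 groups did not overlap: the lowest WT library was 28.6-fold above the highest CYGB-OE library. For both members every CYGB-OE library lay below every WT library, as did 70.1% of all features in the table, while 28.3% had every CYGB-OE library above.

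The mean normalized count of TXNIP was 27673 ± 2199.7 in WT and 782 ± 164 in CYGB-OE (SD, n = 3 each), a 35.4-fold difference and a log2 fold change of -5.15 (SE 0.18). TXNIP made up 1.14% to 1.32% of the table's counts in a WT library and 0.0329% to 0.0513% in a CYGB-OE library. By mean normalized count it ranked 13 of 2778 features in WT and 283 in CYGB-OE. Of the 336 features with a WT mean over 1000 normalized counts, 4 had a lower log2 fold change than TXNIP: IL1B, ELF3, IL1A and SULF1. Leaving out 1 library at a time gave 3 to 5. These 4 had WT means of 1016 to 8734, so TXNIP was the most abundant of the 5 in WT. In bulk RNA, fewer cells with the transcript and less transcript per cell cannot be told apart.

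The deposited counts of ARRDC4 were 1323, 1949 and 1383 in WT and 237, 178 and 217 in CYGB-OE, in the same order of libraries. As normalized counts these were 1455, 1540.4 and 1469.9 in WT and 253, 199 and 197 in CYGB-OE. Here too the groups did not overlap, and the lowest WT library was 5.76-fold above the highest CYGB-OE library. The mean was 1488 ± 45.6 in WT and 216 ± 31.7 in CYGB-OE (SD, n = 3 each), a 6.88-fold difference and a log2 fold change of -2.78 (SE 0.13). Its rank by mean normalized count was 238 in WT and 642 in CYGB-OE. Among the 336 features with a WT mean over 1000, 19 had a lower log2 fold change than ARRDC4. With 1 library left out at a time, this count was 15 to 23.

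**Figure D2:**
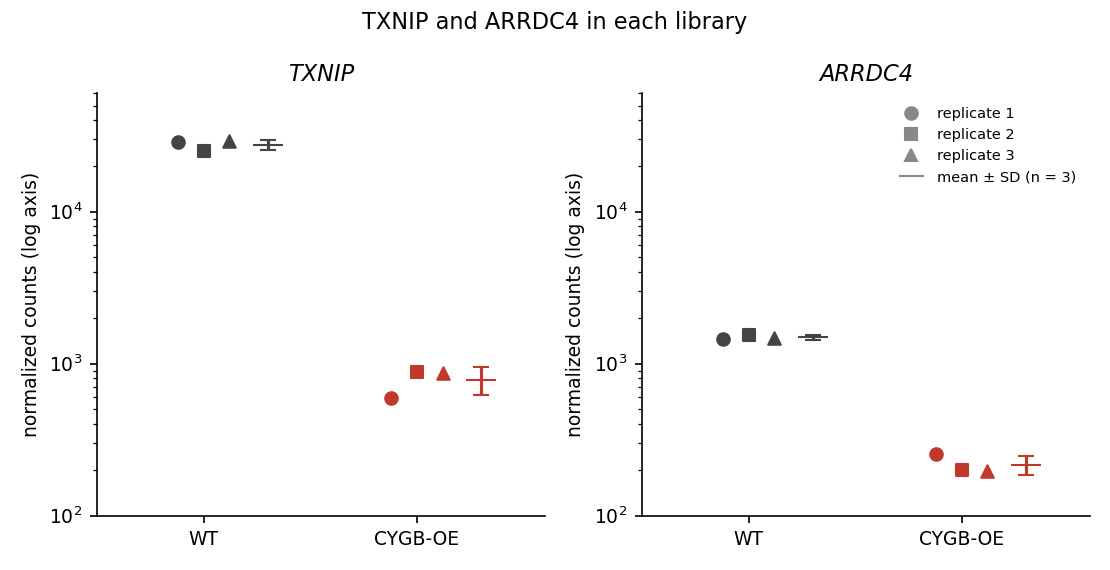
Normalized counts (log axis) of TXNIP (left) and ARRDC4 (right) in the 3 WT and 3 CYGB-OE libraries; each point is 1 library, the marker gives its replicate number, and bars beside the points are mean ± SD. TXNIP lies between 25145 and 29151 in WT and between 593 and 879 in CYGB-OE, and ARRDC4 between 1455 and 1540.4 and between 197 and 253.

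**Figure D3:**
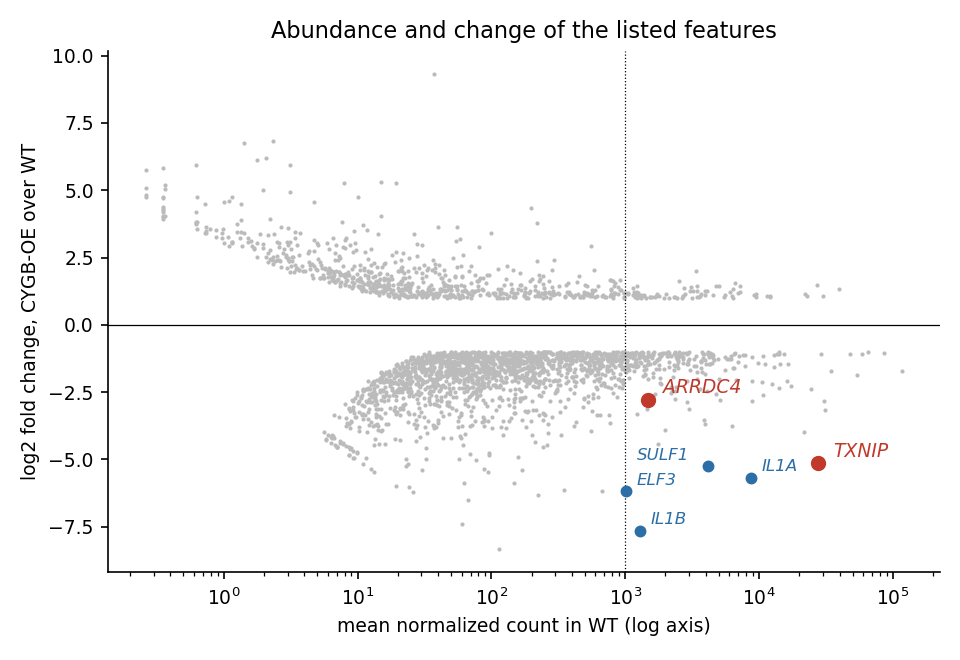
Mean normalized count in WT (x axis, log scale) against the log2 fold change of CYGB-OE over WT for the features with counts in both groups; each grey point is 1 feature, and the empty band around 0 comes from the selection of the table. TXNIP and ARRDC4 are red, and the 4 features over 1000 (dotted line) with a lower fold change than TXNIP are blue.

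The level between the groups had to be set from the table itself, and it moves both values. The log2 fold change was -3.95 for TXNIP and -1.58 for ARRDC4 with TMM over the table, and -4.79 and -2.44 with the total counts of the table. Both members stayed below 0 under each of the 4 other scalings.

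The ratio of the 2 transcripts within a library does not depend on that level. WT replicates 1 to 3 had 19.7, 16.3 and 19.8 TXNIP counts for each ARRDC4 count, and CYGB-OE replicates 1 to 3 had 2.35, 4.42 and 4.43. The mean ratio was 18.6 ± 2.0 in WT and 3.73 ± 1.2 in CYGB-OE (SD, n = 3 each), 4.99-fold apart, and the lowest WT ratio was 3.68-fold above the highest CYGB-OE ratio. In every CYGB-OE library TXNIP was thus lower in relation to ARRDC4 than in any WT library.

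Per kilobase of exon, TXNIP was at 7634 ± 607 normalized counts in WT and ARRDC4 at 366 ± 11.2, a ratio of 20.9 ± 2.25. In CYGB-OE the levels per kilobase were 216 ± 45.1 and 53.1 ± 7.78, a ratio of 4.19 ± 1.35 (SD, n = 3 each). TXNIP therefore stayed the more abundant of the pair in all 6 libraries. On this per-kilobase scale its levels in the CYGB-OE libraries, 164 to 242, were below those of ARRDC4 in WT, 357 to 378.

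**Figure D4:**
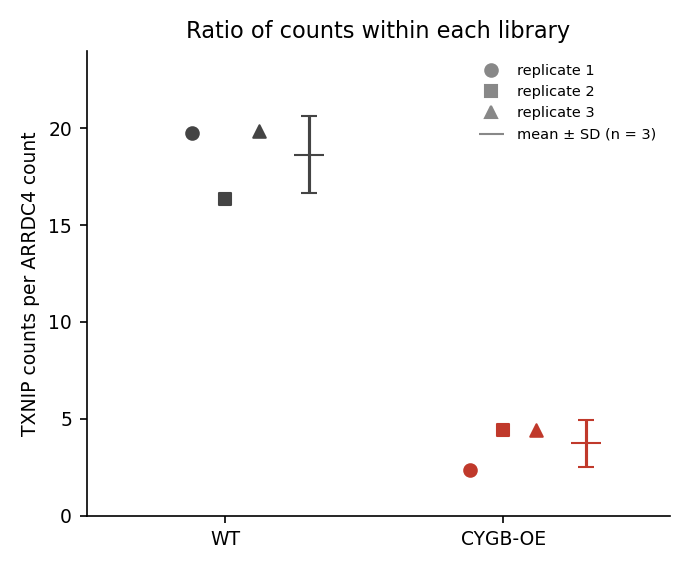
TXNIP counts per ARRDC4 count (y axis) in each WT and CYGB-OE library; points are libraries, markers give the replicate number, and bars beside them are mean ± SD (n = 3). The WT libraries lie between 16.3 and 19.8 and the CYGB-OE libraries between 2.35 and 4.43, with CYGB-OE replicate 1 lowest.

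The 2 members differed from each other in CYGB-OE replicate 1, the library that stood apart. There TXNIP was at 0.677 times its mean in CYGB-OE replicates 2 and 3, while ARRDC4 was at 1.28 times. CYGB-OE replicates 2 and 3 were close to each other for both genes, at 877 ± 3.23 normalized counts for TXNIP and 198 ± 1.10 for ARRDC4 (SD, n = 2). Without replicate 1 the difference from WT was 31.6-fold for TXNIP and 7.52-fold for ARRDC4, and the mean ratio of their counts in CYGB-OE was 4.43. The coefficient of variation over 3 libraries was 7.95% in WT and 20.9% in CYGB-OE for TXNIP, and 3.07% and 14.6% for ARRDC4. Of the other alpha-arrestins, ARRDC1, ARRDC2, ARRDC3 and ARRDC5 are not in the table, nor are the 4 beta and visual arrestins, and their levels were not analysed here.

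The genes whose profile over the 6 libraries lay nearest to each member were found among 2323 other named genes that were tested. The measure was the Euclidean distance between log2(normalized count + 1) profiles, each with its own WT mean subtracted. It therefore mostly reflects the log2 fold change, on which the members were selected. A near gene is mainly one with a similar fold change, and the number of near genes depends on how many features changed that far. TXNIP and ARRDC4 were 4.19 apart from each other. Few genes came near TXNIP: 1 lay within a distance of 1, ASB11, a subunit of a ubiquitin ligase, at 0.94. ASB11 had 21 to 37 counts in WT and 0 in each CYGB-OE library, so its place rests on the added 1. The next were the muscle calcium channel gene CACNA1S (1.29), the hair keratin gene KRT81 (1.33) and the cytokine receptor genes IL3RA and IL18R1 (1.5 each). KRT81 was at 1769 ± 109 normalized counts in WT and 82.2 ± 11.8 in CYGB-OE (SD, n = 3). Counts in the CYGB-OE libraries were low for CACNA1S (3 or fewer), IL3RA (4 or fewer) and IL18R1 (8 to 12).

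Around ARRDC4, 77 of the 2323 genes lay within a distance of 1. The nearest were SPANXB1 (0.12), CX3CL1 (0.26), REPS2 (0.27), the non-coding AC025470.2 (0.35) and NOTUM (0.38). CX3CL1, which encodes the chemokine fractalkine, was at 627 ± 39.9 normalized counts in WT and 97.1 ± 18.6 in CYGB-OE. NOTUM, an enzyme that inactivates Wnt proteins, was at 73.2 ± 7.46 and 8.90 ± 0.71 (SD, n = 3). SPANXB1, a cancer-testis gene, has near-identical relatives, which makes its count uncertain.

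The other genes of the pathway were taken from 14 lists with 186 genes beside the 2 members. Of these, 27 are in the table and 26 were tested, and 7 were called higher and 19 lower. Their median log2 fold change was -1.58, against -1.29 over all features tested. With 26 of 26 called, against 99.8% of the table, the calls follow from how the table was selected, and the direction is near that of the table as a whole. Fold changes below are those of the edgeR fit. TMM over the table raises the log2 fold changes by 1.2. It sets the level from features selected for a difference, so it was not the main scaling. The shift is common to all features, and 1274 of 2468 were not called with it. A call lost or a sign turned with TMM below therefore shows dependence on the level between the groups. With TMM, 7 list genes were higher and 9 lower, against 28.9% and 19.4% of all features. Without CYGB-OE replicate 1, 27 were tested and 7 were higher and 19 lower, against 730 and 1837 of 2595 features tested.

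Of 13 genes of the MondoA, ChREBP and MLX-MAX network, 3 were in the table. All 3 were called lower, as were 70.9% of all features tested. MLXIPL, the gene of ChREBP, was at 135, 129 and 157 normalized counts in WT and 21.3, 65.9 and 41.8 in CYGB-OE (log2 fold change -1.71, SE 0.34; edgeR adjusted p = 0.00126). Every CYGB-OE library lay below every WT library, as for 70.1% of all features in the table, and its counts were low in both groups. MYCN and MYCL, members of the MYC family, were at -3.39 and -1.26, and MYCN had 3, 9 and 16 counts in CYGB-OE replicates 1 to 3. MYCN stayed called at -2.20 with TMM over the table, while MLXIPL (-0.51) and MYCL (-0.07) lost their calls. MLXIP, the gene of MondoA, and MLX are not in the table.

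Of 23 genes known to be induced by glucose through carbohydrate response elements, the table holds 3, TXNIP, ARRDC4 and HBP1. HBP1, a transcriptional repressor, was at 148, 404 and 93.5 normalized counts in WT and 57.6, 62.5 and 29.1 in CYGB-OE (log2 fold change -2.14, SE 0.60; edgeR adjusted p = 0.0102). WT replicate 2 was high, and without it the log2 fold change was -1.29 (edgeR adjusted p = 0.0125). Its call was lost without CYGB-OE replicate 1, at a log2 fold change of -2.29 (edgeR adjusted p = 0.101), with TMM over the table (-0.94) and when adjusted over all annotated genes. The lipogenic genes of the list (FASN, ACACA, SCD and others) are not in the table.

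Of 24 thioredoxin system genes, 2 were in the table and both were called higher, as were 28.9% of all features tested. PRDX1, a peroxiredoxin that thioredoxin reduces, was at 9475, 9669 and 9222 normalized counts in WT and 22058, 20465 and 20878 in CYGB-OE (log2 fold change 1.16, SE 0.08; edgeR adjusted p = 5.23e-06). RRM2, a subunit of ribonucleotide reductase, which draws electrons from thioredoxin or glutaredoxin, had a log2 fold change of 1.06. The thioredoxins TXN and TXN2, which TXNIP can bind, and the thioredoxin reductases are not in the table. Of 8 glutaredoxin and glutathione genes, 2 were in the table and both were called higher, again beside 28.9% of all features tested. They were GLRX2, a mitochondrial glutaredoxin (1.06), and GCLM, the modifier subunit of the enzyme that starts glutathione synthesis (1.12).

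Of 16 glucose transporter genes, 3 were in the table. SLC2A1, the gene of the ubiquitous transporter GLUT1, whose internalization TXNIP promotes, was at 2274, 2486 and 2317 normalized counts in WT and 5554, 4315 and 4490.3 in CYGB-OE. The lowest CYGB-OE library exceeded the highest WT library, as for 28.3% of all features in the table. SLC2A1 rose by 1.02 on the log2 scale (SE 0.12, edgeR adjusted p = 6.19e-05). SLC2A4, the gene of the insulin-responsive GLUT4, and SLC5A2, that of a sodium-coupled transporter, were lower at low counts (-1.70 and -1.06). SLC2A4 lost its call with TMM over the table, at -0.50, and SLC5A2 turned to 0.14. The SLC5A2 call was also lost without WT replicate 1 (log2 fold change -0.91, edgeR adjusted p = 0.0649).

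Of 13 genes of hexokinases and glucose 6-phosphate handling, the hexokinase gene HKDC1 was in the table and rose (log2 fold change 1.16). Of 23 glycolysis genes, ALDOC and ENO2, isoforms of aldolase and enolase, were in the table and fell, at -1.47 and -1.42. These values were near the median of -1.29 over all features tested, of which 70.9% were called lower. ALDOC and ENO2 lost their calls with TMM over the table, at -0.27 and -0.22. None of 15 genes of AMPK subunits, DDIT4 and the sestrins was in the table. Of 11 NEDD4-family ligase and adaptor genes, the ligases that alpha-arrestins recruit, HECW2 was in the table and rose at low counts (log2 fold change 1.12, edgeR adjusted p = 0.0175), a call lost without CYGB-OE replicate 2 at a log2 fold change of 1.0 (edgeR adjusted p = 0.0511).

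TXNIP is also known as a partner of the NLRP3 inflammasome. Of 10 genes of that list, 4 were in the table, 3 were tested and all 3 were called lower. The same call was given to 70.9% of all features tested. The median log2 fold change of the 3 list genes was -3.59. They were P2RX7, an ATP-gated channel (-3.59), NLRP1, another inflammasome sensor (-1.68), and IL1B, with 1182 to 1551 counts in WT and 16, 2 and 0 in CYGB-OE replicates 1 to 3. CASP1, the protease that matures interleukin 1 beta, had 9 to 31 counts in WT and 2, 0 and 2 in CYGB-OE and was not tested. The 3 tested genes stayed called lower with TMM over the table, as were 19.4% of all features tested. Without CYGB-OE replicate 1 all 4 were tested and called lower, as were 1837 of the 2595 features tested in that setting. NLRP3 is not in the table.

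TXNIP transcription is known to respond also to glucocorticoids and to FOXO factors. Of 11 glucocorticoid-induced genes, 3 were in the table and all 3 were called lower, as were 70.9% of all features tested. The 3 were the transcription factor CEBPD (-3.76), the IkB-alpha gene NFKBIA (-2.83) and TSC22D3 (-1.14), which turned to 0.06 with TMM over the table. NFKBIA was much higher in CYGB-OE replicate 1 (2573 normalized counts) than in replicates 2 and 3 (595 and 569), and without that library its log2 fold change was -3.92. CEBPD stayed called with TMM over the table, at -2.55, and NFKBIA did not, at -1.62.

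Of 15 FOXO factors and FOXO-induced genes, 5 were in the table and all 5 were called lower, as were 70.9% of all features tested. Their median log2 fold change was -2.29. FOXO3 was at -1.09, which turned to 0.11 with TMM over the table, and FOXO6 at -2.29 with low counts. FBXO32, the ubiquitin ligase atrogin-1, was at 2230.5 ± 87.0 normalized counts in WT and 407 ± 56.5 in CYGB-OE (SD, n = 3; log2 fold change -2.45). The repressor BCL6 was at -1.73, and PIK3IP1, an inhibitor of PI3-kinase, at -3.76. PIK3IP1 had 2, 6 and 14 counts in CYGB-OE replicates 1 to 3, and was at -3.34 without replicate 1 and -4.50 without replicate 3. Of the 5, FOXO6, FBXO32, BCL6 and PIK3IP1 stayed called lower with TMM, as were 19.4% of all features tested.

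**Figure D5:**
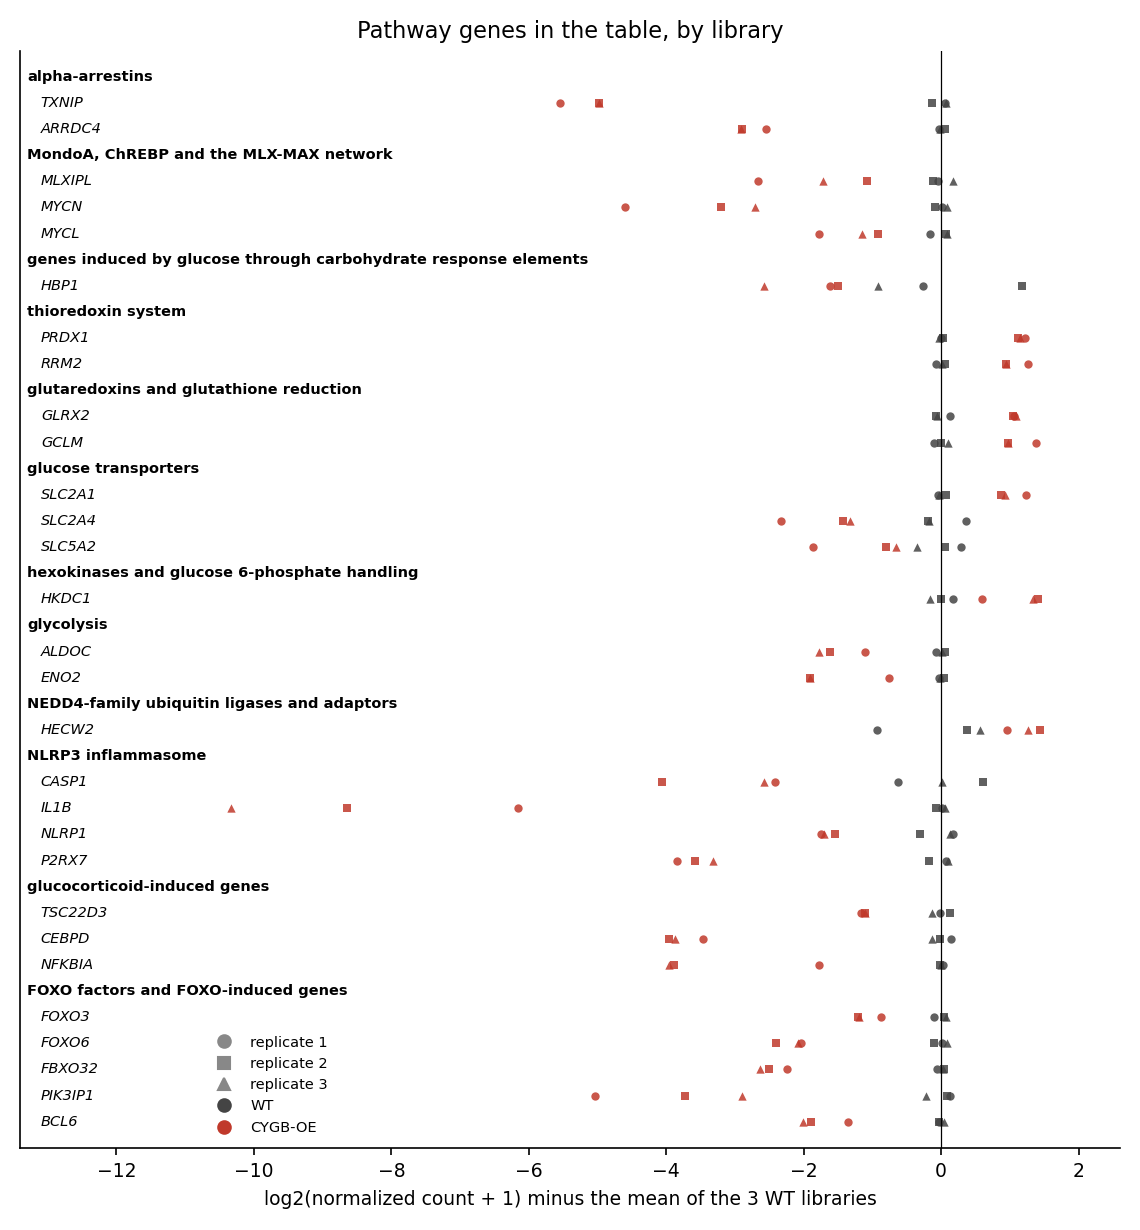
Pathway genes of the 14 lists that are in the table, with TXNIP and ARRDC4 at the top; the x axis is log2(normalized count + 1) minus the mean of the 3 WT libraries, black points are WT and red points CYGB-OE libraries, and markers give the replicate number. A gene on several lists is drawn once; the CYGB-OE points of PRDX1, RRM2, GLRX2, GCLM, SLC2A1, HKDC1 and HECW2 lie to the right of their WT points and those of the other genes to the left.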

How the data were processed

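6 A375 RNA-seq libraries, made from poly-A RNA per the labels' protocols, were grouped 3 against 3 by genotype label. The submitters' processing notes name featureCounts, Subread 1.5.2, STAR 2.5.2b and Trimmomatic 0.36, and the build GRCh38. Neither the annotation nor the strand setting of the counting was given in the sources used here. The authors deposited raw counts per feature for 2778 features, of which 2611 were matched by identifier to GENCODE 29. Replicates differed by more than sampling noise (chi-square per degree of freedom 3.64 to 34.5) and were counted separately; separate cultures are named in no label, and p-values therefore reflect the spread among these libraries, which may be technical.

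Log2 ratios of the group means left a band 1.99 wide without any feature. The middle of that band set the level of one group against the other, and TMM (edgeR 4.0.16, R 4.3.3) set the factors inside each group. edgeR's quasi-likelihood F test (two-sided, robust, group as the only term) was run on features passing filterByExpr with a minimum count of 10. Benjamini-Hochberg adjustment was over 2468 features, with a threshold of 0.05. The test was first run on simulated counts in which most features did not differ between the groups. That setting is unlike this table, so the simulation does not vouch for the calls here. Since the table was selected on this contrast, calls are not independent evidence. For TXNIP and ARRDC4 the log2 fold change is that of the ratio of group means. Each SE, also theirs, is the absolute log2 fold change of the edgeR fit divided by the square root of its F statistic. It is thus derived from that test and is not a separate measure of spread. When a library was left out, the factors of the others were kept.

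The members and lists were chosen with earlier results of these data known. Named genes were the members, list genes in the table, CYGB as the check of the labels, and the 5 genes nearest to each member by profile; GNRHR2, LINC02251, ELF3, IL1A and SULF1 were named after their values were seen. Alternatives were other scalings, no filter, DESeq2 1.42.0, limma-voom (limma 3.58.1), a replicate block, adjustment over all annotated genes and leaving out each library.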

Additional observations from a re-analysis of the deposited data

How the results depend on the processing

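With TMM over the table, DESeq2 size factors, upper-quartile factors and total counts, the TXNIP log2 fold change was -3.95, -3.94, -4.28 and -4.79 and that of ARRDC4 -1.58, -1.57, -1.92 and -2.44; log2 CPM of the table total with a prior count of 2 gave -4.82 and -2.44. Features called lower, 1749, became 480, 476 and 910 under the first 3 scalings, and pathway list genes called lower, 19, became 9, 9 and 11. The upper-quartile scaling was chosen after seeing the data. So were the alternatives for pathway list counts, GNRHR2, LINC02251 and the counts of abundant genes below TXNIP and ARRDC4. These scalings raise log2 fold changes by 1.2, 1.21, 0.86 and 0.35. FOXO3, TSC22D3, SLC5A2 and GNRHR2 turned to 0.11, 0.057, 0.14 and 0.14 with TMM and to 0.12, 0.064, 0.14 and 0.15 with DESeq2 size factors. Leaving out 1 library at a time gave -5.24 to -4.98 for TXNIP, -2.91 to -2.72 for ARRDC4 and -2.51 to -2.07 for their difference (-2.36 with all libraries). Adjusted over all 58780 annotated genes, HBP1, ENO2, HECW2, SLC5A2, NFKBIA, GNRHR2 and LINC02251 lost their calls. With the DESeq2 and limma-voom tests no list gene, nearest gene or neighbour changed its call; without a filter CASP1 was tested and called lower, so that 20 list genes were lower, and none of the others changed. The replicate numbers did not pair the libraries (correlations of same-numbered deviations -0.01, -0.07 and -0.00047); with the replicate block 712 features were higher and 1750 lower, the TXNIP and ARRDC4 log2 fold changes were -5.16 and -2.79, and none of those genes changed its call. With 3 libraries a group and a table of selected features, depth and the levels of unlisted genes could not be judged.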
